A study of Mus musculus with 20 samples.

Results

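The myelin and Schwann cell genes Mbp, Pmp22 and Sox10 were followed across 20 Affymetrix arrays of mouse skeletal muscle. Every probe set whose platform symbol was one of these names was taken, dim ones included, which gave 7 of the 10748 probe sets on the table: 5 for Mbp, 1 for Pmp22 and 1 for Sox10. They stand for 3 of the 6603 genes that a probe set names alone. The arrays fell into 5 groups of 4, all from female C57BL/6 mice at 14 weeks of age. Gastrocnemius and triceps came from transgenic mice carrying the human mutant SOD1G93A (SOD1), a model of amyotrophic lateral sclerosis, at a symptomatic age. A further gastrocnemius group came from mice whose sciatic nerve was compressed with forceps for 30 s at 12 weeks of age and which were killed 2 weeks later (crush). Gastrocnemius and triceps of non-transgenic mice (NTg) served as the controls. The study included the crushed muscles as a control for denervation. The labels give neither the genotype of the crushed mice nor the promoter of the transgene, and no sham-operated group was analysed here. The description of NTg triceps replicate 4 names gastrocnemius, while its title, source name and tissue name triceps; the title was followed.

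Schwann cells wrap the motor and sensory axons that run through a muscle, and myelinating ones lay down a compact sheath around the larger axons. Sox10 is a transcription factor that the Schwann cell lineage needs at every stage and that activates myelin genes together with Egr2. Mbp, myelin basic protein, binds the cytoplasmic faces of the membrane and holds them together in the sheath, and Pmp22, peripheral myelin protein 22, is a small membrane-spanning glycoprotein of compact peripheral myelin whose duplication causes a form of Charcot-Marie-Tooth neuropathy. After axons are lost, Schwann cells are known to switch off myelin genes and to enter a repair state marked by Jun. Neither Mbp nor Pmp22 is restricted to Schwann cells: the Mbp locus also makes golli transcripts in immune and other cells, and Pmp22 is expressed in many non-neural tissues.

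The values are log2 MAS5 signals, the logarithm of the summarised brightness of a probe set, and a difference of 1 is a doubling. Array medians lay between 6.61 and 6.76, and the mean levels of 12 muscle fibre markers were all at or above the 98.7th percentile of the table. Pearson correlations of each array with the others of its group averaged 0.917 to 0.972, and the lowest belonged to crush replicate 4. Each muscle is a mixture in which nerve is a small fraction, so fewer Schwann cells and less RNA per Schwann cell cannot be told apart. The labels call the arrays biological replicates. Differences were tested with limma over the whole table, and a probe set was called at a Benjamini-Hochberg adjusted p under 0.05.

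Pmp22 was the member for which RefSeq promoter windows were at hand, and a pair of them is printed to show how differently its annotated starts are built. The table (GRCm38.p6) held 4 windows for Pmp22, each running from 250 bases before an annotated start to 50 bases after it, all on the + strand of chromosome 11, with 3821 bases between the first and the last start. The first lies at chr11:63128732-63129031 and the last at chr11:63132553-63132852. Capitals mark the GC box GGGCGG or its reverse complement.
Pmp22 first window: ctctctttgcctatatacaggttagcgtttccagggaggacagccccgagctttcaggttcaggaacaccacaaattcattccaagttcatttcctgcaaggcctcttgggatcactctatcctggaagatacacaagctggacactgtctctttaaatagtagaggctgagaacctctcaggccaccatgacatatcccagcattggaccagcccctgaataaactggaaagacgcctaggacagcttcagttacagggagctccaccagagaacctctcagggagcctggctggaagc
Pmp22 last window: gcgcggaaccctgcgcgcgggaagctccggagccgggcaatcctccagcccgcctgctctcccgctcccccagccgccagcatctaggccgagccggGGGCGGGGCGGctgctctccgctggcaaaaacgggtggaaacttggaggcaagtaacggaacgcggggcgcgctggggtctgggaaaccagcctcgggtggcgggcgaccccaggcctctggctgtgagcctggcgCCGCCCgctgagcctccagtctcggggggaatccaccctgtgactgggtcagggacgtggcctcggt
The first window had a GC content of 50.7% and 3 CpG dinucleotides, and the last had 72.3% and 30. The windows between them had 18 and 20 CpG. Over all 32544 distinct windows of the table the median was 53.0% GC and 7.0 CpG. The GC box, searched on both strands, occurred 3 times in the last window and 3 times in the second, counting overlapping matches, and not in the other two; 35.9% of all windows hold it. Neither of the core letters bound by SOX factors, ACAAAG and ACAATG, and no TATAAA was found on either strand of the 4 windows, and 28.4% of all windows hold at least 1 of the SOX cores while 13.6% hold TATAAA. These matches describe letters only, and which start gave the signal on the arrays was not measured.

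Mbp was high in all 4 NTg gastrocnemius arrays and in 3 of 4 SOD1 gastrocnemius arrays, uneven after nerve crush, and low in every triceps. The brightest probe set, 1433532_a_at, read 8.65, 6.57, 9.30 and 8.75 in replicates 1 to 4 of SOD1 gastrocnemius. After crush it read 8.42, 5.65, 6.97 and 5.49. In NTg gastrocnemius it read 8.88, 9.23, 8.72 and 9.08. SOD1 replicate 2 therefore stood about as low as a triceps, and crush replicate 1 stood close to the NTg values. In triceps the probe set read 5.63, 6.12, 5.98 and 5.60 in SOD1 mice and 6.51, 5.97, 6.65 and 6.37 in NTg mice. The triceps values lay within about a unit of each other, and none reached the lowest NTg gastrocnemius value.

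The group means of this probe set were 8.32 ± 1.20 in SOD1 gastrocnemius, 6.63 ± 1.37 after crush, 8.98 ± 0.22 in NTg gastrocnemius, 5.83 ± 0.26 in SOD1 triceps and 6.38 ± 0.29 in NTg triceps (SD, n = 4 each). The order ran from NTg gastrocnemius through SOD1 gastrocnemius, crushed gastrocnemius and NTg triceps down to SOD1 triceps. Neighbours in that order overlapped in every case. The SDs of SOD1 and crushed gastrocnemius were several times those of the other 3 groups.

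**Figure D1:**
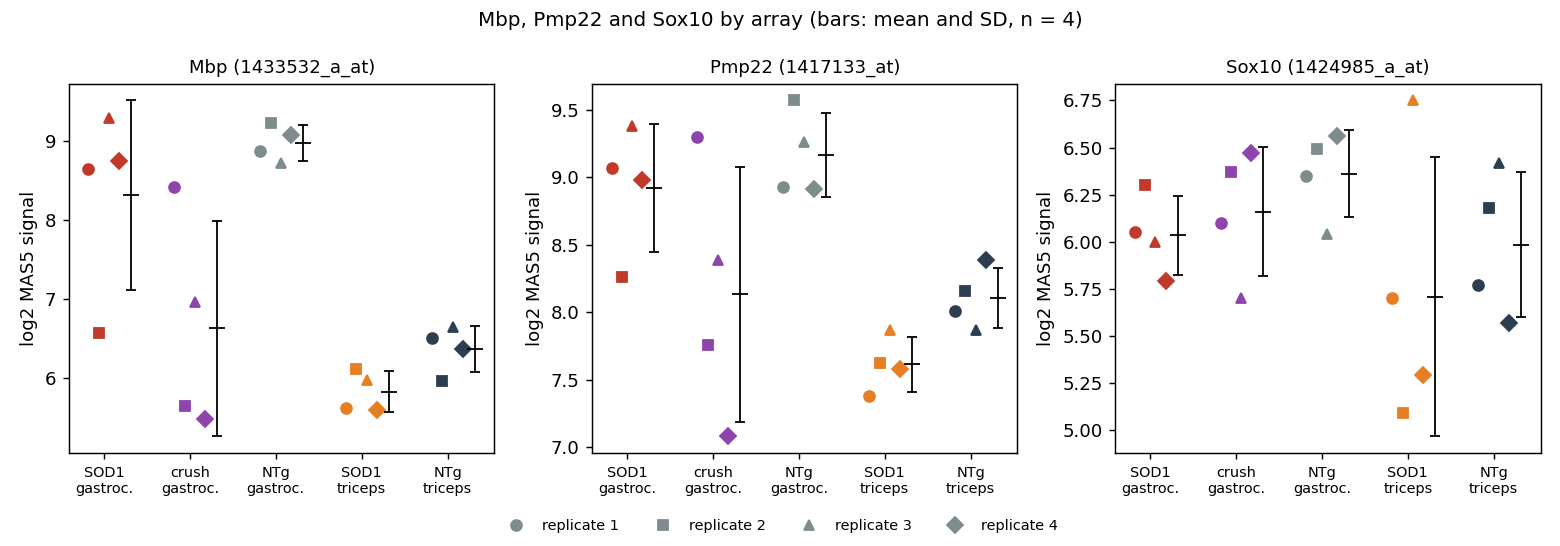
Log2 MAS5 signal of Mbp (1433532_a_at), Pmp22 and Sox10 on each array, with the group mean and SD (n = 4) as a bar beside them; groups run from SOD1 gastrocnemius to NTg triceps. Mbp and Pmp22 are low in every triceps and dip together on SOD1 gastrocnemius replicate 2 and on crush replicates 2 to 4, while Sox10 stays between 5.09 and 6.75.

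Of the other 4 Mbp probe sets, all but 1451961_a_at ranked the gastrocnemius arrays much as the brightest one did. SOD1 replicate 2 was the lowest of its group in 5 of 5 Mbp probe sets and SOD1 replicate 3 the highest in 5 of 5. Crush replicate 1 was the highest in 4 of 5 and crush replicate 4 the lowest in 4 of 5. The exception was 1451961_a_at, where crush replicate 4 was the highest (5.80) and crush replicate 2 the lowest (5.39). Probe set 1419646_a_at read 8.18, 6.23, 8.72 and 8.15 in SOD1 gastrocnemius, 7.77, 5.31, 7.08 and 4.57 after crush, and 8.40, 8.76, 8.14 and 8.73 in NTg gastrocnemius. These values again put crush below NTg on every array. Probe set 1436201_x_at averaged 6.67 ± 1.01 in SOD1 gastrocnemius, 6.04 ± 1.11 after crush and 6.94 ± 0.40 in NTg gastrocnemius (SD, n = 4 each). For 1456228_x_at the averages were 7.03 ± 1.38, 5.12 ± 2.49 and 7.72 ± 0.38 in the same order, with a low of 2.08 on crush replicate 4. The dimmest probe set, 1451961_a_at, averaged 6.00 ± 0.42, 5.63 ± 0.19 and 6.14 ± 0.35, and it was the one member probe set within the lowest 30% of the table by mean signal. The suffix x marks probe sets whose probes can also match other transcripts, and which Mbp transcripts each probe set reads was not examined. Levels of different probe sets are not comparable with each other.

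**Figure D2:**
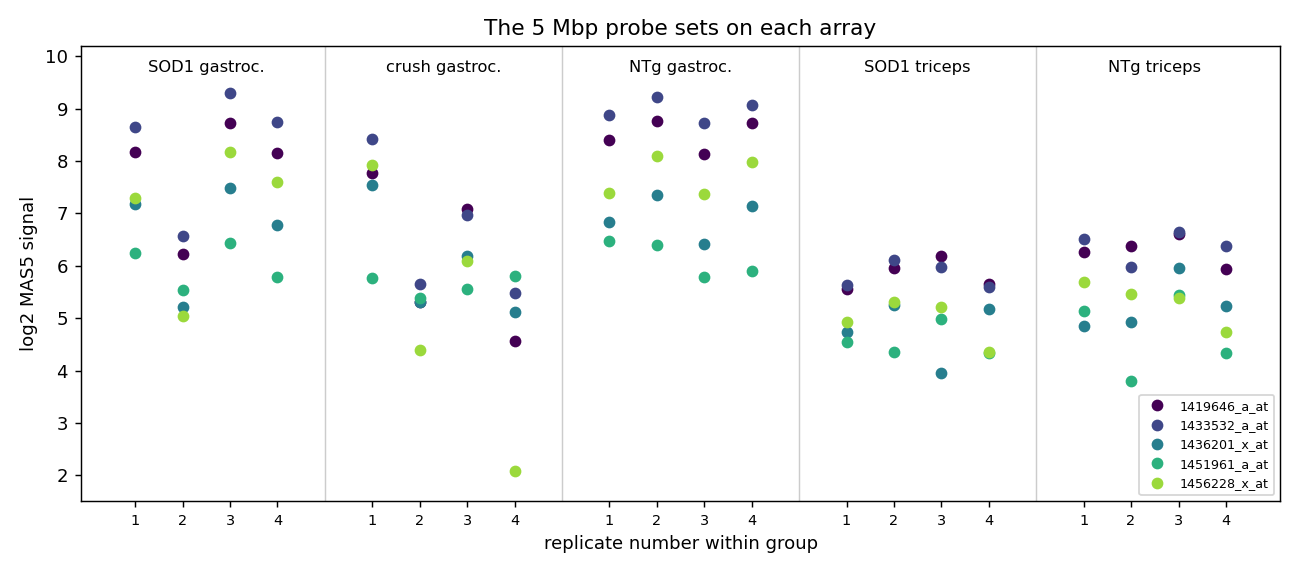
Log2 MAS5 signal of the 5 Mbp probe sets (colours) on each of the 20 arrays, by group and replicate number. SOD1 gastrocnemius replicate 2 is lowest in its group for all 5, and 1456228_x_at falls to 2.08 on crush replicate 4 while 1451961_a_at reads 5.80 there.

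Pmp22 followed the same arrays with a smaller span. It read 9.07, 8.26, 9.38 and 8.98 in SOD1 gastrocnemius, 9.30, 7.76, 8.39 and 7.08 after crush, and 8.93, 9.57, 9.26 and 8.91 in NTg gastrocnemius. SOD1 replicate 2 was again the low array of its group, and crush replicate 1, close to the NTg values for Mbp, lay among them. In triceps it read 7.38, 7.62, 7.87 and 7.58 in SOD1 mice and 8.01, 8.16, 7.87 and 8.39 in NTg mice. The means were 8.92 ± 0.47 in SOD1 gastrocnemius, 8.13 ± 0.94 after crush, 9.17 ± 0.32 in NTg gastrocnemius, 7.61 ± 0.20 in SOD1 triceps and 8.11 ± 0.22 in NTg triceps (SD, n = 4 each). The order of the groups was that of Mbp, and neighbours overlapped.

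Sox10 differed little between the groups. Its single probe set was dim, with a mean at the 34.2th percentile of the table. Whether its signal came from Schwann cells alone was not tested. It read 6.05, 6.30, 6.00 and 5.79 in SOD1 gastrocnemius, 6.10, 6.37, 5.70 and 6.47 after crush, and 6.35, 6.49, 6.04 and 6.56 in NTg gastrocnemius. In triceps it read 5.70, 5.09, 6.75 and 5.29 in SOD1 mice and 5.77, 6.18, 6.42 and 5.57 in NTg mice. All 5 groups overlapped, and both the highest and the lowest value of the gene came from SOD1 triceps. The means were 6.04 ± 0.21, 6.16 ± 0.34 and 6.36 ± 0.23 in SOD1, crushed and NTg gastrocnemius, and 5.71 ± 0.74 and 5.98 ± 0.39 in SOD1 and NTg triceps (SD, n = 4 each). On SOD1 gastrocnemius replicate 2, the low array for Mbp and Pmp22, Sox10 was the highest of its group.

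Nerve crush was the study's reference for denervation. Mbp was lower in crushed than in NTg gastrocnemius, and 2 of its 5 probe sets passed the test. By 1433532_a_at the log2 change was -2.35 (SE 0.52, limma adjusted p = 0.0185), a level 5.09-fold lower, and every crushed muscle lay below every NTg muscle, as groups did not overlap for 13.9% of all probe sets. By 1419646_a_at it was -2.32 (adjusted p = 0.0222). Probe set 1456228_x_at gave -2.59 with the larger SE of 0.80 (adjusted p = 0.086), 1436201_x_at gave -0.90 (adjusted p = 0.335) and 1451961_a_at gave -0.51 (adjusted p = 0.378). The change by 1433532_a_at was -2.95 without crush replicate 1, and the call was lost without crush replicate 2 (-2.02, adjusted p = 0.068) and without NTg replicate 2 or 4 (adjusted p = 0.0576 and 0.0605). The call by 1419646_a_at was lost without the same 3 arrays, with an adjusted p of up to 0.0766, and in a fit of the compared arrays alone (adjusted p = 0.051). Without crush replicate 1 probe set 1456228_x_at was called as well, at -3.52 (adjusted p = 0.0132).

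Pmp22 did not pass the test after crush. Its log2 change was -1.04 (SE 0.32, 95% interval -1.70 to -0.37, adjusted p = 0.0846), with 3 of 4 crushed muscles below all NTg muscles. Crush replicate 1 decided this: without it the change was -1.43 (adjusted p = 0.0111). Sox10 changed by -0.20 (95% interval -0.78 to 0.38, adjusted p = 0.762). Of the 7 member probe sets, all 7 had a negative estimate and 2 were called, against 2.87% of the 10748 probe sets called in either direction and 1.98% called lower.

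SOD1 against NTg muscle addressed the effect of the disease model in each muscle. None of the 7 member probe sets passed the test in gastrocnemius, where 9.13% of all probe sets were called, or in triceps, where 0.214% were, although all 7 estimates, 5 of them of Mbp, were negative in both. In triceps the estimates of muscle fibre, endothelial and fibroblast genes were also mostly negative. Negative were 12 of 12 muscle fibre genes (median -0.63), 11 of 11 endothelial genes (median -0.55) and 9 of 10 fibroblast genes (median -0.38). The genes of other cell types gave a mixed picture. Of 10 macrophage genes 5 were higher and 5 lower (median 0.0), and of 2 lymphocyte genes 1 was higher and 1 lower. The 1 perineurial gene, Slc2a1, gave 0.08 by its brighter probe set and -0.53 by the dimmer one. The 1 melanocyte gene gave 0.04. None of these genes was called by its brightest probe set. The part of these cells in the member estimates was not tested. Mbp gave -0.66 in gastrocnemius (95% interval -1.73 to 0.41, adjusted p = 0.439) and -0.54 in triceps (95% interval -1.61 to 0.53, adjusted p = 0.633). SOD1 gastrocnemius replicate 2 lay 5.32-fold below the NTg mean, and the gastrocnemius estimate was -0.08 without it. Pmp22 gave -0.25 (95% interval -0.91 to 0.42, adjusted p = 0.67) and -0.49 (-1.16 to 0.18, adjusted p = 0.482), and Sox10 gave -0.32 (-0.90 to 0.26, adjusted p = 0.494) and -0.28 (-0.86 to 0.30, adjusted p = 0.65). The intervals do not show equal levels: that of Mbp in gastrocnemius includes a level of 0.300 times that of NTg mice. The SOD1 effect in gastrocnemius minus that in triceps was -0.12 for Mbp (adjusted p = 0.967), 0.24 for Pmp22 (0.887) and -0.04 for Sox10 (0.978). No probe set on the table was called for that difference by limma, and 951 (8.85%) had an unadjusted p under 0.05.

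SOD1 gastrocnemius was also set against crushed gastrocnemius. Mbp was 3.22-fold higher in SOD1 by its mean (log2 1.69, 95% interval 0.61 to 2.76) with an adjusted p of 0.255. The log2 difference was 0.79 for Pmp22 (adjusted p = 0.354) and -0.12 for Sox10 (adjusted p = 0.894). None of the 10748 probe sets was called by limma in this comparison (0%), 1248 (11.6%) had an unadjusted p under 0.05, and 6 of the 7 member estimates were positive. The absence of calls hung on crush replicate 4, since 563 probe sets were called without that array.

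The clearest contrast of the members was between muscles. Mbp by 1433532_a_at was 5.59-fold higher in gastrocnemius than in triceps of SOD1 mice (log2 2.48, SE 0.52, adjusted p = 0.0154) and 6.08-fold higher in NTg mice (log2 2.60, SE 0.52, adjusted p = 0.0134). The groups did not overlap in either genotype, as for 9.78% of all probe sets in SOD1 and 9.52% in NTg mice. In SOD1 mice 5 of 7 member probe sets were called higher, 4 of Mbp and the one of Pmp22, against 3.37% of all probe sets called in either direction and 1.58% called higher. In NTg mice 3 of 7 were called higher, all of Mbp, against 1.73% called in either direction and 1.54% called higher. By 1433532_a_at the call held in SOD1 mice in all 9 fits that left out an array, and in NTg mice it was lost without triceps replicate 2 (2.47, adjusted p = 0.0641). The calls of the dimmer Mbp probe sets were less steady: 1419646_a_at lost its call without any of 6 arrays in SOD1 mice and 7 in NTg mice, 1436201_x_at without any of 6 in SOD1 mice, and 1451961_a_at without triceps replicate 2 in SOD1 mice and without any of 4 arrays in NTg mice. Other processing settings also ended calls in SOD1 mice, 4 of 8 for 1419646_a_at (adjusted p up to 0.0798) and 3 of 8 for 1436201_x_at (up to 0.0967). Pmp22 was 2.48-fold higher in SOD1 gastrocnemius (log2 1.31, adjusted p = 0.0342), a call that was lost in 5 of the 9 fits that left out an array, those without SOD1 gastrocnemius replicate 1, 3 or 4 or SOD1 triceps replicate 1 or 2 (adjusted p up to 0.115). In NTg mice it was 2.09-fold higher with no overlap of the groups and an adjusted p of 0.0979. Sox10 gave 0.33 in SOD1 mice (95% interval -0.25 to 0.91, adjusted p = 0.535) and 0.38 in NTg mice (-0.20 to 0.96, adjusted p = 0.607). The summed level of the fibroblast list spanned 12.62 to 12.93 in gastrocnemius and 12.16 to 12.86 in triceps of SOD1 mice, and 12.21 to 12.85 and 12.65 to 12.98 in NTg mice. For the endothelial list the spans were 9.75 to 10.02 and 9.36 to 9.78 in SOD1 mice and 9.96 to 10.23 and 10.01 to 10.16 in NTg mice. For the muscle fibre list they were 15.46 to 16.18 and 14.67 to 15.68 in SOD1 mice and 15.57 to 16.21 and 15.25 to 16.35 in NTg mice. In SOD1 mice all 12 fibre genes had a higher estimate in gastrocnemius (median log2 difference 0.77, 1 called), as did all 11 endothelial genes (median 0.44, none called). In NTg mice 9 of the 12 fibre genes (median 0.12) and 6 of the 11 endothelial genes (median 0.02) did, none called. Slc2a1, a glucose transporter and the one perineurial marker on the table, was 0.64 higher in SOD1 mice (adjusted p = 0.0574) and 0.56 in NTg mice (adjusted p = 0.138). The dimmer Slc2a1 probe set gave 0.65 in SOD1 mice and -0.07 in NTg mice. The part that these cells played in the Mbp and Pmp22 differences was not tested.

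**Figure D3:**
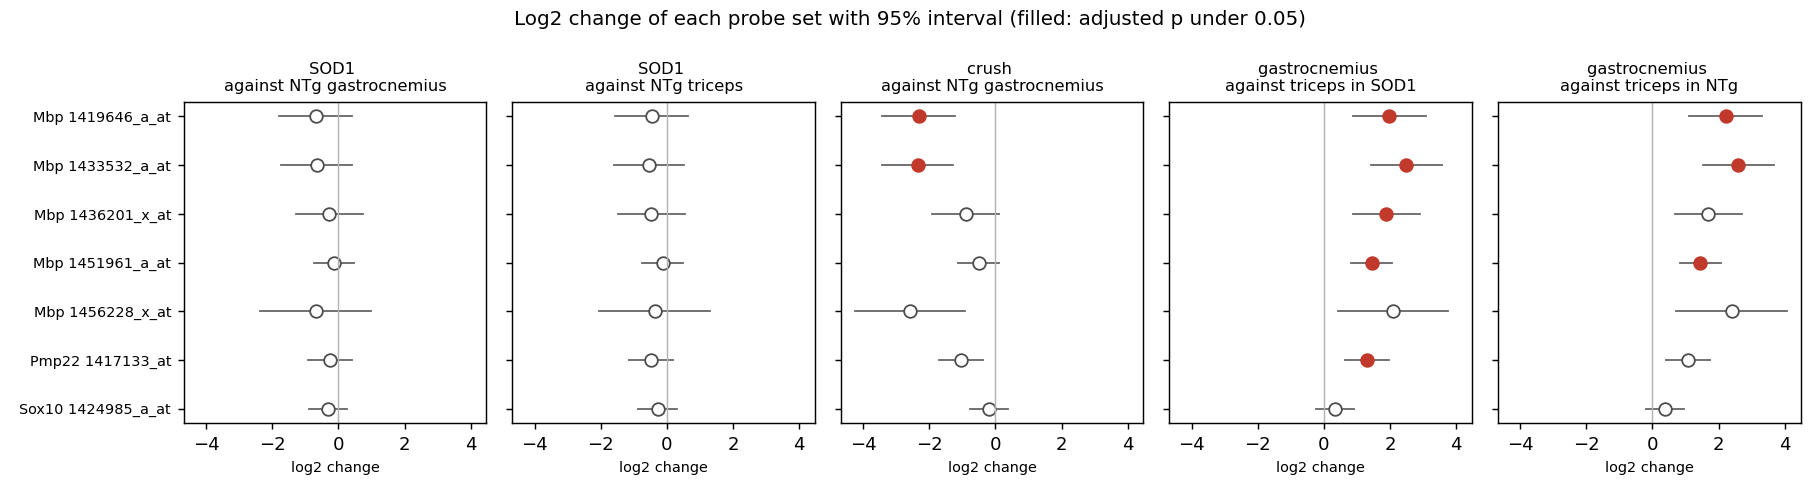
Log2 change of the 7 member probe sets (rows) in 5 comparisons (panels), with 95% intervals from limma; filled points have an adjusted p under 0.05. Mbp is called lower after crush by 2 probe sets and higher in gastrocnemius than triceps by 4 in SOD1 and 3 in NTg mice. Sox10 is called in no panel, with estimates from -0.32 to 0.38.

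Mbp, by its brightest probe set, and Pmp22 varied together over the arrays, and Sox10 did not follow them. Over all 20 arrays the Pearson r of Mbp and Pmp22 was 0.941, the highest among 4831 genes for either, and with the group means taken out it was 0.856. With Sox10 the r was 0.234 for Mbp and 0.2 for Pmp22, and -0.223 and -0.224 with group means taken out. The dimmest Mbp probe set, 1451961_a_at, departed from this. Its r was 0.646 with Pmp22 and 0.498 with Sox10, and 0.11 and 0.323 with group means taken out. The remaining Mbp probe sets gave 0.856 to 0.938 with Pmp22 over the 20 arrays. The arrays form 2 clusters in Mbp, a high one of 8 arrays (NTg gastrocnemius, 3 SOD1 gastrocnemius and crush replicate 1) and a low one of the rest, and the points share array, muscle and mouse group, so the coefficients are given as a description. The genes outside the members most like Mbp among the 4771 above the lowest 30% by mean were Ndrg1 (r = 0.927), a gene whose loss causes a demyelinating neuropathy, Cd9 (0.88), a tetraspanin present in Schwann cells among other cells, Fbln5 (0.746), an elastic fibre protein, Tnmd (0.69), a tendon gene, and Ldhb (0.67), a lactate dehydrogenase subunit. For Pmp22 they were Cd9 (0.916), Ndrg1 (0.904), Fbln5 (0.785), Tagln (0.753), a smooth muscle actin-binding protein, and Scara5 (0.74), a ferritin receptor. For Sox10 they were Aplp2 (0.877), Tomm22 (0.85), Aldoa (0.815), Ncstn (0.812) and Uqcrb (0.808), which were not among the genes nearest the other two. Aldoa is also in the muscle fibre list. With group means taken out, the r of these 5 with Sox10 was 0.777 to 0.863. The r with Mbp was then 0.787 for Ndrg1, 0.761 for Cd9, 0.565 for Fbln5, 0.356 for Tnmd and 0.047 for Ldhb. Symbols that name only a clone or predicted gene were left out of the 4771.

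Ndrg1 (1456174_x_at) showed the array pattern of Mbp on a narrower scale. It read 6.81, 6.13, 6.98 and 6.89 in SOD1 gastrocnemius, 6.45, 5.47, 6.17 and 5.84 after crush, and 6.76, 7.06, 6.40 and 6.86 in NTg gastrocnemius. Replicate 2 was low in SOD1 and replicate 1 highest after crush, as for Mbp. The change after crush was -0.79 (adjusted p = 0.0492), and its second probe set, 1450976_at, gave -0.33 (adjusted p = 0.543). Cd9 gave -0.52 after crush (adjusted p = 0.244).

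**Figure D4:**
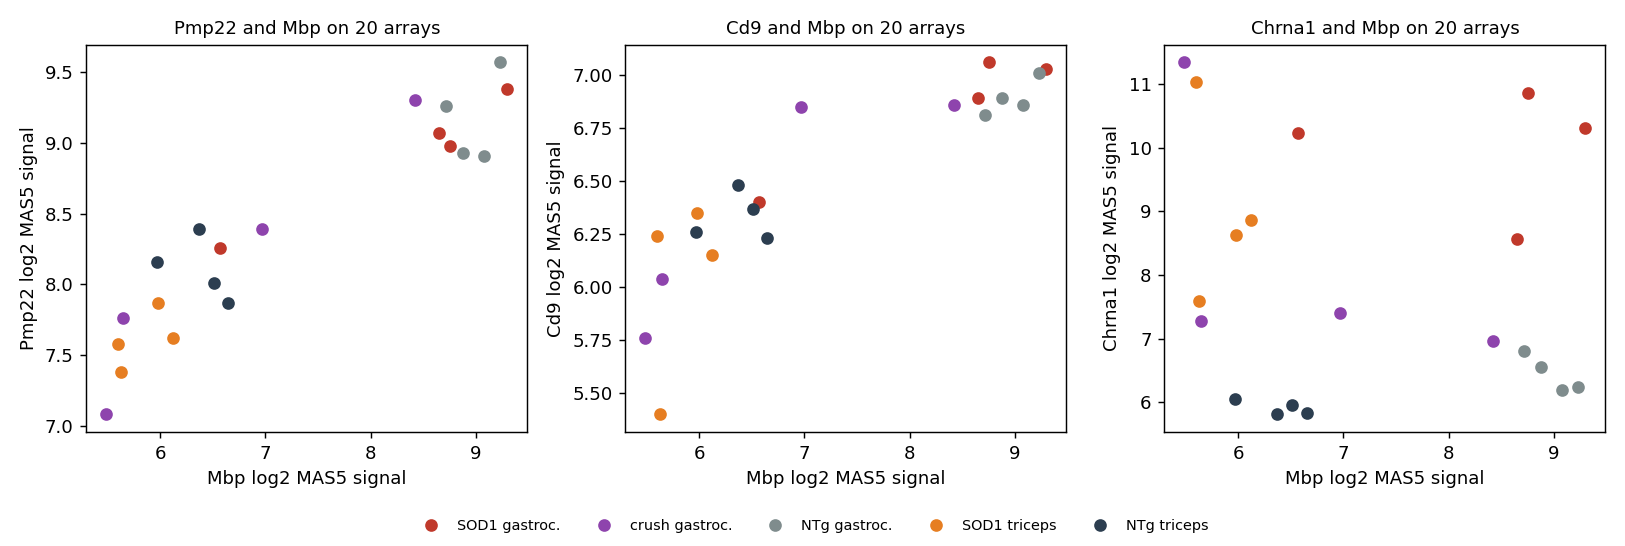
Log2 MAS5 signals of Pmp22, Cd9 and Chrna1 (vertical axes) against Mbp 1433532_a_at (horizontal axis), 1 point an array, coloured by group. Pmp22 and Cd9 are high on the arrays where Mbp is high, while Chrna1 is high on arrays at both ends of the Mbp range.

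Chrna1, the acetylcholine receptor subunit that muscle fibres raise on denervation, did not order the arrays as Mbp did. It read 8.57, 10.23, 10.30 and 10.85 in SOD1 gastrocnemius, 6.97, 7.28, 7.40 and 11.34 after crush, and 6.55, 6.24, 6.81 and 6.20 in NTg gastrocnemius. SOD1 replicates 3 and 4 thus had high Chrna1 together with NTg-like Mbp, and crush replicates 2 and 3 had Chrna1 less than a unit above the highest NTg value together with low Mbp. Other arrays paired high Chrna1 with low Mbp or the reverse. Crush replicate 4 had the highest Chrna1 (11.34) and the lowest Mbp (5.49) of the gastrocnemius arrays. SOD1 replicate 2 had high Chrna1 with low Mbp, and every NTg gastrocnemius had low Chrna1 with high Mbp. Over the 20 arrays the r of Chrna1 with Mbp was -0.138, which includes the triceps arrays, where Mbp was low in SOD1 and NTg mice alike.

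The other myelin genes on the table moved with Mbp only in part. Over the 20 arrays the r with Mbp was 0.883 for Ugt8a, 0.88 for Cd9, 0.872 for Mal and 0.724 for Fa2h. It was -0.188 for Cd82 and -0.408 for Cd151. Ugt8a, Mal and Fa2h were too dim to enter the ranking of the genes most like Mbp. The list of myelin and myelin lipid genes held 24 names, of which 8 besides Mbp and Pmp22 were on the table. After crush none of the 8 was called, 5 had negative estimates and the median was -0.19, against 0.023 over all probe sets. The lowest estimates were -1.82 for Ugt8a (adjusted p = 0.253), which makes the galactolipids of myelin, and -1.26 for Mal (adjusted p = 0.201), a membrane proteolipid of myelin. Ugt8a read 4.10, 1.01, 5.31 and 4.55 in SOD1 gastrocnemius, 4.44, 0.21, 3.87 and 2.58 after crush, and 4.87, 4.45, 4.44 and 4.62 in NTg gastrocnemius. SOD1 replicate 2 and crush replicate 2 were the low arrays of their groups. Mal (log2 1.95, adjusted p = 0.045) and Fa2h (log2 1.14, adjusted p = 0.0249) were called higher in gastrocnemius than triceps of SOD1 mice. Fa2h hydroxylates the fatty acids of myelin lipids. Mal and Fa2h were 2 of the 8, against 1.58% of all probe sets called higher, and Mal was dim in SOD1 triceps (mean 3.43). In NTg mice, where 1.54% of all probe sets were called higher, none of the 8 was called. In SOD1 against NTg gastrocnemius, where 4.88% of all probe sets were called higher and 4.24% lower, 2 of the 8 rose, Cd82 by 1.31 (adjusted p = 0.012) and Cd151 by 0.90 (adjusted p = 0.00877). Both are tetraspanins that many cell types express. In triceps none of the 8 was called. Fa2h gave -0.85 there (adjusted p = 0.183), with every SOD1 below every NTg triceps, as groups did not overlap for 6.48% of all probe sets.

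Markers of the repair Schwann cell and of Schwann cell regulation were on the table in part, 9 of 28 and 15 of 28 besides Sox10. In SOD1 gastrocnemius, against 4.88% of all probe sets called higher, 2 of the 9 repair genes rose, Ncam1 by 1.88 (adjusted p = 0.0404) and Jun by 1.21 (adjusted p = 0.0239), and in SOD1 triceps Jun alone rose, by 1.63 (adjusted p = 0.031). The dimmer Jun probe set, 1448694_at, gave 1.39 in SOD1 gastrocnemius (limma adjusted p = 0.0169). It was not called in SOD1 triceps (1.2, adjusted p = 0.143) or after crush (0.69, adjusted p = 0.278). Denervated muscle fibres are also known to raise Ncam1. After crush none of the 9 was called. Jun gave 0.35 (adjusted p = 0.612), Ngfr, the low-affinity neurotrophin receptor, 0.86 (adjusted p = 0.157) and S100b, a calcium-binding protein of Schwann cells, -1.31 (adjusted p = 0.234). By array Jun read 7.43, 7.62, 7.57 and 9.14 after crush, and 7.25, 7.81, 7.89 and 7.41 in NTg gastrocnemius. Only crush replicate 4 lay above all NTg values, and it also had the highest Chrna1 of the crushed muscles (11.34). Among the 15 regulators Id2 (2.59, adjusted p = 0.0259) and Yap1 (0.61, adjusted p = 0.0256) rose in SOD1 gastrocnemius, 2 of 15 against the same 4.88%, and none was called in triceps or after crush. The dimmer probe sets gave 0.56 for Id2 and 0.42 for Yap1. Erbb3, the neuregulin receptor of Schwann cells, gave 0.43 (adjusted p = 0.187) in SOD1 gastrocnemius. The list holds Taz in error, since in mouse that symbol is tafazzin.

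**Figure D5:**
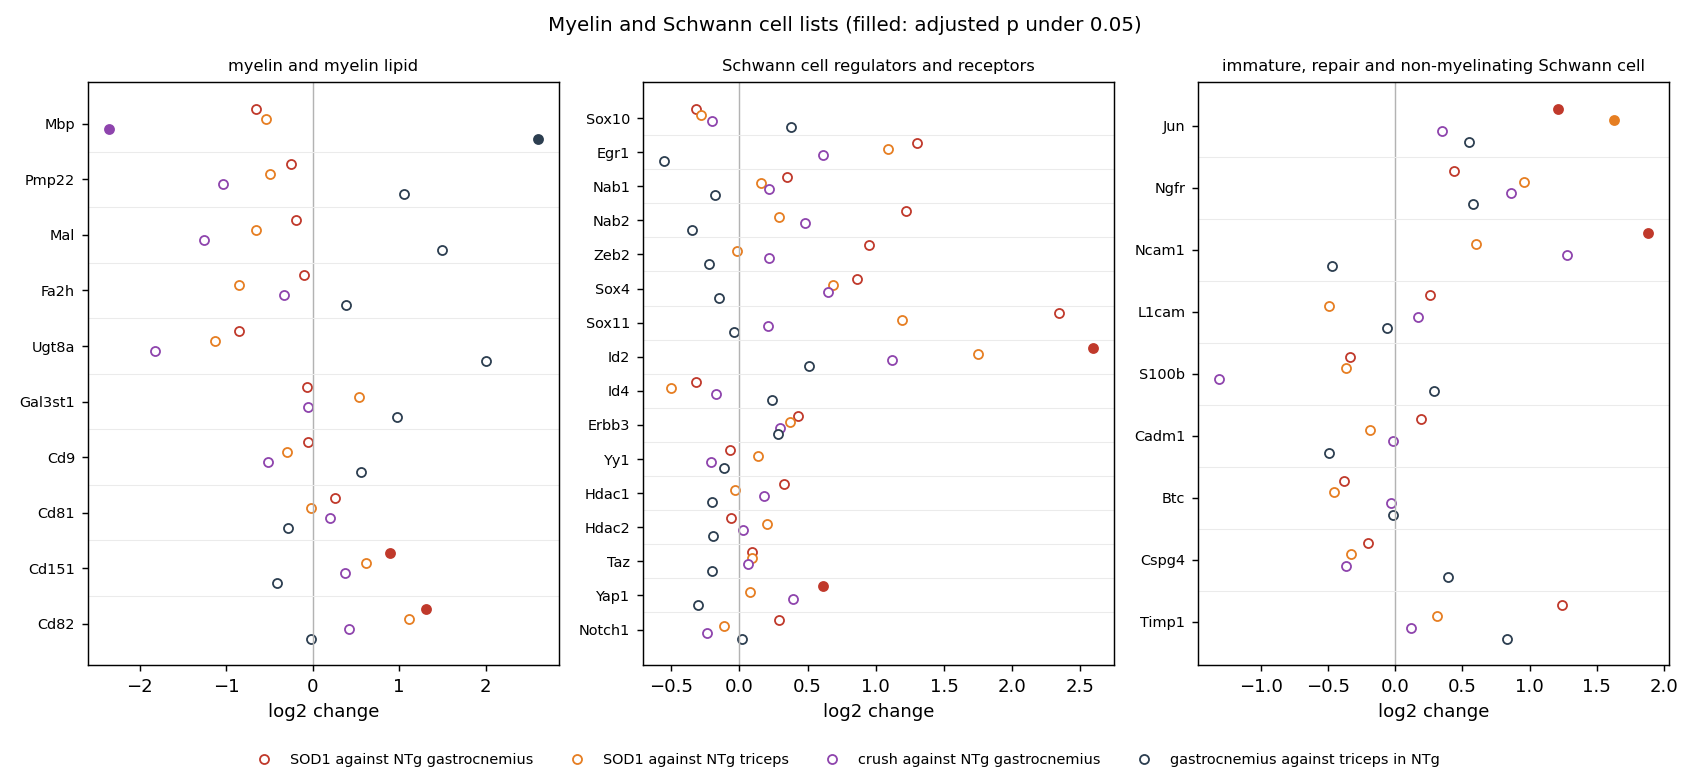
Log2 change of every gene on the table from 3 lists (panels) in 4 comparisons (colours), 1 probe set a gene; filled points have an adjusted p under 0.05. In the myelin panel Mbp, Ugt8a, Mal and Pmp22 lie furthest left after crush, and the filled points of the other panels are Id2, Yap1, Ncam1 and Jun, all to the right.

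Of the 3 axon and node genes measured, 2 were called higher in SOD1 gastrocnemius, against 4.88% of all probe sets. They were Uchl1, a neuronal ubiquitin hydrolase (2.61, adjusted p = 0.0151), and Nrcam, a node adhesion molecule (adjusted p = 0.0285). Both are also expressed outside neurons. Nrcam read 5.17, 6.88, 7.16 and 7.34 in SOD1 and 3.38, -1.17, 3.86 and 1.25 in NTg gastrocnemius, and no fold is given because the NTg values lie at the low end of the scale. After crush Uchl1 gave 2.04 (adjusted p = 0.0786), with all 4 crushed muscles above all NTg muscles. Groups did not overlap for 13.9% of all probe sets. Of 3 SOX relatives Sox6, a regulator of fibre type, fell by 0.66 in SOD1 gastrocnemius (adjusted p = 0.0249), against 4.24% of all probe sets called lower. None of the 3 was called in triceps or after crush. None of 6 relatives of Pmp22 was called in any of the 7 comparisons. After crush their estimates ran from -0.60 for Perp to 0.42 for Emp2.

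Macrophage genes were set beside the members in the same groups. In SOD1 gastrocnemius 6 of 10 rose, against 4.88% of all probe sets, among them Lgals3 by 2.64 (adjusted p = 0.00584) and C1qb by 0.93 (adjusted p = 0.0039), and the summed level of the list spanned 10.48 to 11.06 in SOD1, 9.79 to 10.43 in crushed and 9.61 to 9.94 in NTg gastrocnemius. After crush all 10 estimates were positive and none was called. Between the NTg muscles, where Mbp was higher in gastrocnemius, 9 of the 10 macrophage genes had lower estimates there (median -0.49), 1 of them called. Between the SOD1 muscles, where Mbp was also higher in gastrocnemius, 9 of the 10 had higher estimates there (median 0.22), none called. The part of these cells in the Mbp and Pmp22 signals was not tested.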

How the data were processed

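The arrays measured total RNA from 20 muscles, labelled with biotin. The values are the deposited log2 signals, which MAS5 produced (named, per the submitters' processing notes, with no version). No source used here gives its scaling target, the detection calls, scan dates or any filter behind the 10748 probe sets. Values ran from -3.66 to 13.3 and were used as deposited, so low signals carry large error. Probe sets were named from the platform annotation. Symbols were unique for 9874 probe sets, several for 387 and missing for 487. Groups came from sample titles.

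One limma model (version 3.58.1, R 4.3.3) with 5 group means was fitted to all probe sets and arrays, with a mean-variance trend, 15 residual degrees of freedom and Benjamini-Hochberg adjustment over the table, for 7 comparisons; several share arrays. Intervals are 95% from that model. The number of arrays limits the precision. A gene is represented by its brightest probe set. All member probe sets are named, with list genes that were called in a comparison with NTg (up to 4, otherwise the largest changes) and the 5 genes most correlated with each member; Chrna1, Myog and second probe sets were added after their values were seen. Members and lists were chosen with earlier results of these data known. The model was tested on simulated data. Alternatives were other scalings, filters on dim probe sets, no trend, a robust prior, the mean of the Mbp probe sets, array weights, a fit of the compared arrays alone, a replicate block, and each array left out.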

Additional observations from a re-analysis of the deposited data

How the results depend on the processing

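Pooled over the member probe sets, direction and call stayed as given in 105 of 114 settings after crush, 119 of 121 for SOD1 in each muscle, 113 of 114 for SOD1 against crush, 155 of 177 for the difference of SOD1 effects, 95 of 121 between SOD1 muscles and 100 of 121 between NTg muscles. Single probe sets were less steady: without counting fits that left out an array, Mbp 1419646_a_at kept its call in 4 of 8 settings between SOD1 muscles (adjusted p up to 0.0798) and Mbp 1436201_x_at in 5 of 8 (up to 0.0967), and each lost more than it kept once those fits were counted. Between NTg muscles 1419646_a_at and 1451961_a_at each lost the call in 1 setting (adjusted p = 0.0622 and 0.0627). For the exceptions the cause was not tested, except that fits with fewer arrays have fewer degrees of freedom. Counts of called probe sets moved more. Among fits that left out an array, the one without crush replicate 4 gave the highest count for SOD1 gastrocnemius, SOD1 triceps, crush and SOD1 against crush. That array is not itself compared in the SOD1 contrasts with NTg. For SOD1 gastrocnemius 981 became 1994 with the compared arrays alone and 2809 with array weights (184 to 1460 leaving out an array). For SOD1 triceps 23 became 13 after quantile normalization, 7 with the dimmest 60% left out, 111 with the replicate block, 13 without the trend and 46 with array weights (5 to 157). For crush 308 became 1016 with array weights (74 to 371). For SOD1 against crush 0 became 963 (0 to 563) and for the difference of SOD1 effects 0 became 8 (0 to 45), both with array weights. Between SOD1 muscles 362 became 63 with the compared arrays alone and 1363 with array weights (52 to 930). Between NTg muscles 186 became 80 with the dimmest 60% left out, 123 with the compared arrays alone, 283 with the replicate block and 455 with array weights (45 to 508). Pmp22 between NTg muscles was called with the compared arrays alone (1.06, adjusted p = 0.00894) and with array weights (1.08, adjusted p = 0.0396). With array weights the estimate turned to 0.013 for Sox10 in SOD1 against crush and, for the difference of SOD1 effects, to 0.11 for Sox10 and -0.066 for Mbp 1436201_x_at; after scaling to the 75th percentile it turned to 0.018 for Mbp 1451961_a_at. Leaving out an array gave -2.95 to -1.97 for Mbp 1433532_a_at and -1.43 to -0.69 for Pmp22 after crush. Between SOD1 muscles Pmp22 ran from 1.16 to 1.53. Between NTg muscles Mbp ran from 2.47 to 2.70, its call lost without NTg triceps replicate 2 (adjusted p = 0.0641), and Pmp22 from 0.93 to 1.16. Between SOD1 muscles Mbp was 3.07 without SOD1 gastrocnemius replicate 2. Some uncalled estimates changed sign: in SOD1 gastrocnemius Mbp 1436201_x_at (-0.55 to 0.22) and 1451961_a_at (-0.28 to 0.020), in SOD1 triceps 1451961_a_at (-0.42 to 0.13), and for the difference of SOD1 effects Sox10 (-0.25 to 0.30) and Mbp 1433532_a_at (-0.45 to 0.46), 1419646_a_at (-0.52 to 0.30), 1436201_x_at (-0.080 to 0.68), 1451961_a_at (-0.26 to 0.28) and 1456228_x_at (-0.70 to 0.35). The replicate numbers were not shown to pair the samples: deviations of same-numbered gastrocnemius and triceps arrays correlated at 0.456, -0.0742, -0.00982 and 0.541 in SOD1 mice and at 0.13, 0.111, 0.108 and -0.0746 in NTg mice. With the replicate block Mbp after crush stayed at -2.35 (adjusted p = 0.01), and no member call changed.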
